A study of Mus musculus with 6 samples.

Results

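The antioxidant and glutathione enzymes are 37 genes, named by symbol, that remove superoxide and peroxides, make and use glutathione, bind metals, or control these functions. They were found on the arrays through the probe annotation, in which 47 probes matched them. All 37 were among the 16408 genes tested, and all 47 probes were well above background on all 6 arrays. By role, 5 members work in mitochondria, 6 mainly in the cytosol, and 6 outside the cell or in the endoplasmic reticulum (ER). A further 15 are grouped as driven by the transcription factor NRF2, 2 are metallothioneins, 1 is the peroxisomal catalase, and 2 are the regulators NRF2 and KEAP1 themselves. The grouping is by main site or best known control, and several members belong to more than 1 group.

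The study compared skin wounds of wild-type (WT) mice with those of FoxO1 +/- mice, which carry 1 disrupted copy of the gene for the transcription factor FOXO1. Both groups were male C57/BL6 mice with 4 full-thickness wounds each in the back skin. The wounds were made with a 4 mm punch and taken with a 6 mm punch on day 3, and 200 ng of RNA from each sample was labelled with Cy3 and read on 1-colour Agilent arrays. Each genotype had 3 arrays, with the animal's age not given, no unwounded skin among the samples, and no statement of whether an array holds 1 animal or a pool or how a mouse's wounds were combined. The SDs, n and p-values below are therefore over arrays. The disruption is in all tissues as far as the labels say, and the labels do not name the part of the gene that was disrupted.

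Superoxide dismutases turn superoxide into hydrogen peroxide, which catalase, glutathione peroxidases and peroxiredoxins then remove. The glutathione peroxidases and peroxiredoxins do so with electrons that come from glutathione or thioredoxin. NRF2 is held at a low level by KEAP1 and, when oxidants or electrophiles modify KEAP1, switches on genes that carry the antioxidant response element. FOXO transcription factors are known activators of Sod2, Cat, Prdx3, Prdx5 and Selenop in other settings, and wounds are a site of strong oxidant production by the neutrophils and macrophages that enter them.

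Levels are given as log2 of the processed signal relative to the 75th percentile of each array, and differences as FoxO1 +/- minus WT with the standard error (SE) of limma's fit. A level of 1 probe cannot be set against that of another probe. All 6 arrays came from the same slide, with the WT samples and FoxO1 +/- replicate 1 in its upper row (slide row 1) and FoxO1 +/- replicates 2 and 3 in the lower. Between 64.3% and 71.9% of the non-control spots were well above background, with the lowest share on FoxO1 +/- replicate 3, and no spot was saturated. Foxo1 itself read 2.04, 1.81 and 2.32 in WT and 1.54, 1.69 and 1.49 in FoxO1 +/- with its brighter probe. The genotypes did not overlap on either of its 2 probes, which differed by -0.48 (SE 0.15) and -0.89 (SE 0.14) in a fit over probes. Neither probe passed the adjusted threshold of 0.05 (adjusted p = 0.547 and 0.190 by limma over probes). Whether the probes lie in the disrupted part is not given. Keratinocyte markers, which check the tissue, were measured for 7 of 7 genes, with the array means from 6.50 to 7.15. The RNA is from whole tissue, so that fewer cells of a type and less RNA per cell cannot be told apart. Among 14 marker lists for cell types of the wound, array means parted by genotype for 2. The sebaceous gland list ranged from 1.89 to 2.66 in WT and from 1.45 to 1.67 in FoxO1 +/-, and the adipocyte list from 2.20 to 3.19 and from 3.37 to 3.82. The sebaceous list includes Mgst1, itself a member. Its genes Elovl3, Awat1, Awat2 and Krt79 differed by -1.41 to -1.03, but Mgst1 (0.00), Scd1 (-0.02) and Mc5r (-0.05) hardly differed. The part of these cell types in the differences below was not tested.

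Promoter sequences from RefSeq (GRCm38.p6, 250 bases before to 50 after the transcription start) were matched for 31 of the 37 members. They were searched on both strands for the core of the antioxidant response element (TGACNNNGC or TGAGNNNGC), for the FOXO binding motif GTAAACA and for the core of the metal response element (TGCACNC or TGCGCNC). The antioxidant core stood in at least 1 promoter of 11 of the 31 members (35.5%, against 30.8% of all genes in the table), namely Gclm, Gstp1, Mgst1, Mt2, Nfe2l2, Prdx1, Slc7a11, Sod1, Srxn1, Txn2 and Txnrd1. It was as frequent over single promoters, in 27.5% of the members' 40 and in 27.8% of all 32851. The FOXO motif stood in 2 members, Selenop and Slc7a11 (6.45%, against 4.05% of genes, and 3.65% of all promoters). The metal core stood in 8 members (25.8%, against 28.2% of genes, and 25.7% of all promoters). All 3 motifs are short and frequent, an antioxidant and a metal core overlap in the promoter of Gclm, and a match describes letters, not a site that is bound.

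Of the 6 promoters shown, those of Sod2 and Nqo1 belong to the members with the smallest p-values, that of Selenop holds the FOXO motif next to its start, that of Srxn1 holds 3 antioxidant cores, and those of Mt1 and Mt2 belong to neighbouring genes whose levels varied together over the arrays. Capitals mark every match to any of the 3 motifs, and each sequence runs 5′ to 3′ along the gene's strand. They lie at chr17:13007589-13007888 (Sod2, plus strand), chr8:107403156-107403455 (Nqo1, minus), chr15:3270727-3271026 (Selenop, plus), chr2:152105274-152105573 (Srxn1, plus), chr8:94178839-94179138 (Mt1, plus) and chr8:94172368-94172667 (Mt2, plus).
Sod2: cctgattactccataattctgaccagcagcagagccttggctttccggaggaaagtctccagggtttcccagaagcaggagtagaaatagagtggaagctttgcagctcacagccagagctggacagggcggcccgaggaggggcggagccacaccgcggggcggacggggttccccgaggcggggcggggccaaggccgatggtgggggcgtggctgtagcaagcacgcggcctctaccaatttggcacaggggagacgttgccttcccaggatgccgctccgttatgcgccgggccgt
Nqo1: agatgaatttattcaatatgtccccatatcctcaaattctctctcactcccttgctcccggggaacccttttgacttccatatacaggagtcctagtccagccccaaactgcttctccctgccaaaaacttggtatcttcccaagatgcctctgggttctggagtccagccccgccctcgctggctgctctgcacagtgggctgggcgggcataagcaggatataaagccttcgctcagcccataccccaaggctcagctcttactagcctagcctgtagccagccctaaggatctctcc
Selenop: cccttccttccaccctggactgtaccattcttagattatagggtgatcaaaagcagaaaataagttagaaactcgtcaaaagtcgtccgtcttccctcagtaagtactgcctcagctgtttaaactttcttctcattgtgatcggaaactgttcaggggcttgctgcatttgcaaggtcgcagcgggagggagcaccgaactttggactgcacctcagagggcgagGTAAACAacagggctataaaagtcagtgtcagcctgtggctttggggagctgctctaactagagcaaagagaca
Srxn1: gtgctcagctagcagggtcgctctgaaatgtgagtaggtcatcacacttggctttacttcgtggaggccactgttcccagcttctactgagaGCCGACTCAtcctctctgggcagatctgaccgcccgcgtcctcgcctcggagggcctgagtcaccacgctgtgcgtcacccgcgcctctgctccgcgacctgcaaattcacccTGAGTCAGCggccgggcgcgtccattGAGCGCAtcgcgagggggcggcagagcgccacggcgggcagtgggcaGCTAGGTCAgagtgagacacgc
Mt1: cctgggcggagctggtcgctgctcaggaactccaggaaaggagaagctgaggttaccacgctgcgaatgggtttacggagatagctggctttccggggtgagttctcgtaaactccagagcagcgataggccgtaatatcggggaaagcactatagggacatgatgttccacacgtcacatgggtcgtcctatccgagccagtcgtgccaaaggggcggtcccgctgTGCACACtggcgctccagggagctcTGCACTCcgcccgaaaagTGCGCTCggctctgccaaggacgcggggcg
Mt2: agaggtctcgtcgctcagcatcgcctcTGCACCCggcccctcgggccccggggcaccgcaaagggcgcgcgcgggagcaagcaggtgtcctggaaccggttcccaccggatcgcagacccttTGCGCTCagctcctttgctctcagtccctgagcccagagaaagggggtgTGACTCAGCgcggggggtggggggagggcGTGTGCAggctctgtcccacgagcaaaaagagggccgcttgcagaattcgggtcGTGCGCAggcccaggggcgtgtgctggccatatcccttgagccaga
The Sod2 and Nqo1 windows hold none of the 3 motifs, which says only that these letters are not in these 300 bases. Positions are those of the first letter of a match, with the first transcribed base as 0. In Selenop, whose other listed promoters hold no FOXO motif, the capitals are the FOXO motif at position -24. In Srxn1 they are antioxidant cores at -158, -45 and 28, the first and last of them on the other strand, and a metal core at -19, also on the other strand. In Mt1 they are metal cores at -23, 2 and 20, all on the gene's strand. In Mt2 they are metal cores at -223, -128, -50 and 4, the latter pair on the other strand, and an antioxidant core at -79.

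No member passed limma's adjusted p of 0.05, against 1 of all 16408 genes (0.00609%). At an unadjusted p under 0.05 there were 2 of 37, Sod2 higher and Nqo1 lower in FoxO1 +/-, against 6.25% of all genes (3.43% higher and 2.83% lower). The genotypes did not overlap for 7 members, against 11.5% of all genes (6.91% higher and 4.56% lower). Of these 7, Sod2, Prdx3, Txnrd2, Sod1, Prdx2 and Selenop were higher and Gclc was lower. Without WT replicate 2, 6 members had an unadjusted p under 0.05, against 9.10% of all genes, and 21 did not overlap, against 26.7%. The latter count was 11 without WT replicate 1, against 21.3% of all genes, and 11 without FoxO1 +/- replicate 3, against 22.3%. The count of 2 stayed at 2 with normexp (7.45% of all genes) and quantile normalization (6.08%) and was 3 with median scaling (5.80%). The fit with slide row as a block rests on the 1 FoxO1 +/- array in row 1, and why counts changed was not tested. With slide row as a block no member had an unadjusted p under 0.05 (2.91% of all genes), and quantile normalization left 4 that did not overlap (11.3% of all genes).

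The median difference of the 37 members was 0.08, against 0.01 over all genes, and it turned to -0.04 with quantile normalization. A total of 21 members were higher and 16 lower in FoxO1 +/- (56.8% higher, against 53.7% of all genes), while quantile normalization gave 15 higher (40.5%). The share of 53.7% is also the one to set beside the counts of higher and lower genes by role and list below. In 29 of the 37 members the range over the 3 WT arrays was larger than the difference between the genotypes. The interval of the difference, from limma at 95%, excluded 0 only for Sod2 and Nqo1.

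**Figure D1:**
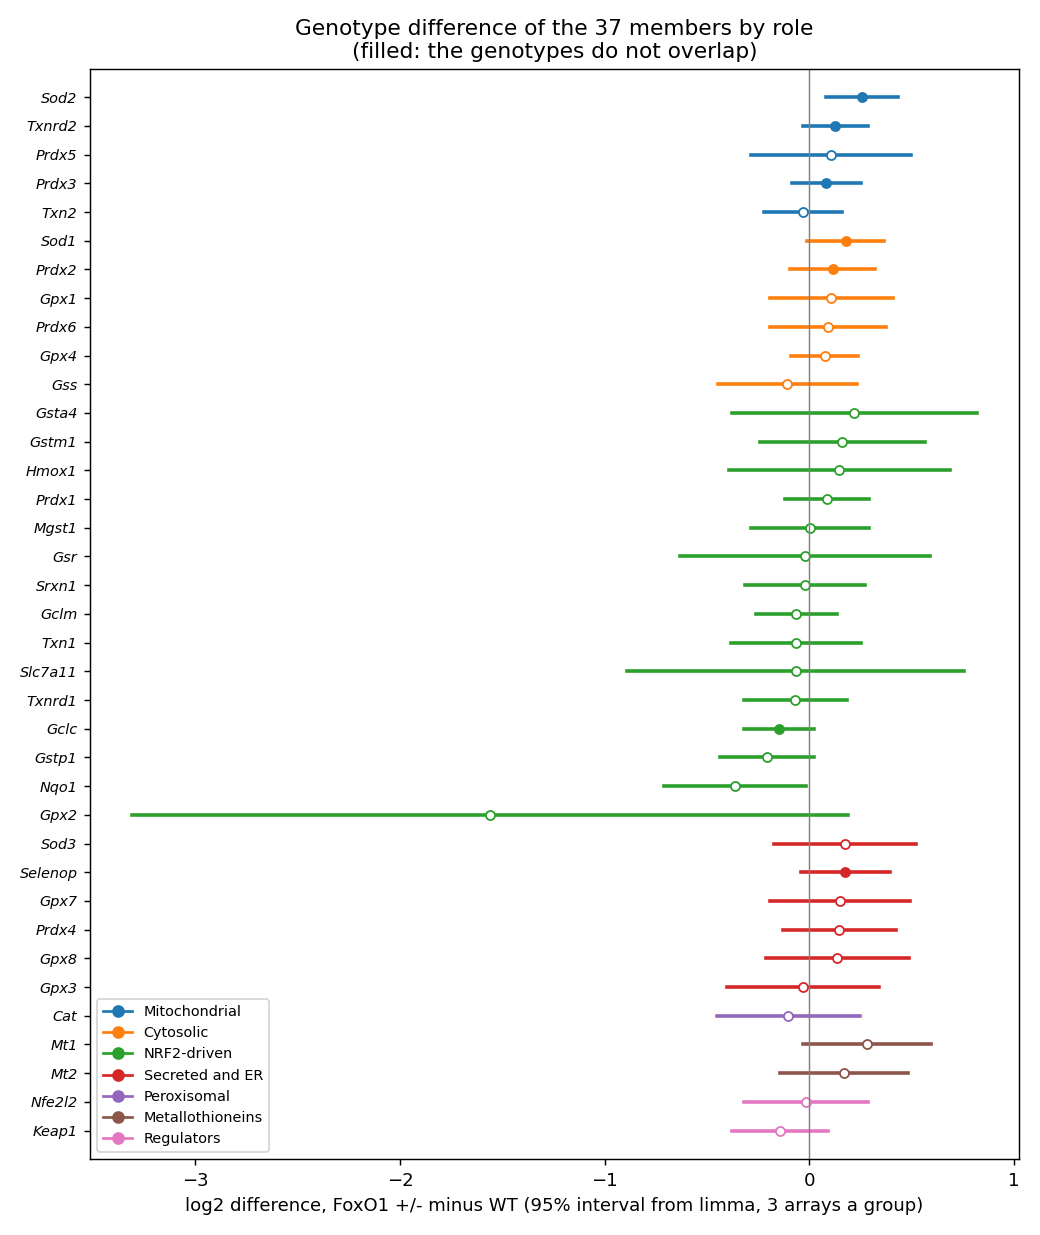
Log2 difference (x axis, FoxO1 +/- minus WT) of each of the 37 members (y axis, coloured by role), with limma's 95% interval over 3 arrays a genotype; filled points are members whose genotypes do not overlap. Only the intervals of Sod2 and Nqo1 lie off 0, and that of Gpx2, from -3.31 to 0.19, is the widest.

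The mitochondrial members had a median difference of 0.11, which came to 0.06 with quantile normalization and to 0.05 with slide row as a block. In FoxO1 +/- 4 of the 5 were higher, against 53.7% of all genes, and 3 of them without overlap, against 6.91%. Sod2, the manganese superoxide dismutase of the mitochondrial matrix, read 5.39, 5.54 and 5.43 on WT replicates 1 to 3 and 5.69, 5.70 and 5.74 on FoxO1 +/- replicates 1 to 3. All 3 FoxO1 +/- arrays lay above all 3 WT arrays, by at least 0.148. The means were 5.45 ± 0.08 and 5.71 ± 0.03 (SD, n = 3), a difference of 0.26 (SE 0.07, 1.19-fold, 95% interval 0.08 to 0.43, unadjusted p = 0.0119 and adjusted p = 0.636 by limma). Left-out arrays kept it between 0.22 and 0.30, slide row as a block gave 0.24, and quantile normalization gave 0.15.

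Txnrd2 and Prdx3 were also separated by genotype, by less. Txnrd2, the mitochondrial thioredoxin reductase, was at 1.73, 1.72 and 1.80 in WT and at 1.87, 1.89 and 1.86 in FoxO1 +/-. The groups did not overlap, with a difference of 0.13 (SE 0.06, adjusted p = 0.845). For Prdx3, the peroxiredoxin confined to mitochondria, WT arrays gave 2.40, 2.30 and 2.40 and FoxO1 +/- arrays 2.42, 2.49 and 2.43. These groups were only 0.018 apart, and the difference was 0.08 (SE 0.07, adjusted p = 0.929).

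Prdx5 and Txn2 showed no such separation. Prdx5, a peroxiredoxin found in mitochondria and peroxisomes, was at 5.73, 6.11 and 5.67 in WT and at 5.84, 5.80 and 6.19 in FoxO1 +/-. WT replicate 2 was above FoxO1 +/- replicates 1 and 2, and the difference of 0.11 had an SE of 0.16. It turned to -0.02 without FoxO1 +/- replicate 3. Txn2, mitochondrial thioredoxin and the substrate of Txnrd2, read 4.81, 4.65 and 4.78 against 4.74, 4.76 and 4.65. Its groups overlapped fully and its difference was -0.03 (SE 0.08).

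**Figure D2:**
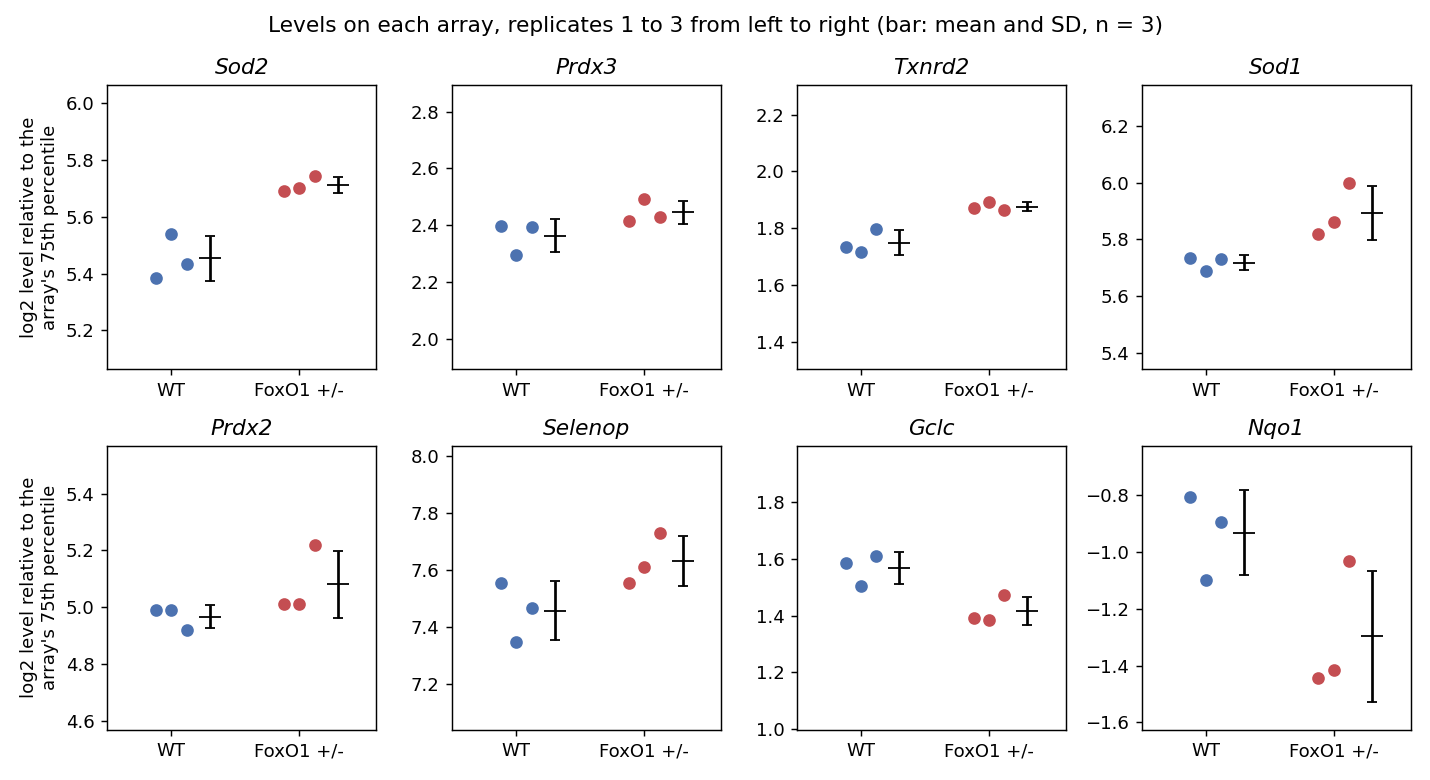
Log2 level relative to the 75th percentile of the array (y axis, a span of 1 in each panel) on the 3 WT and 3 FoxO1 +/- arrays for 8 members, with the mean and SD (n = 3) beside the points. Sod2 shows the widest gap between the genotypes, and in Nqo1 FoxO1 +/- replicate 3 lies among the WT arrays.

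The cytosolic members had a median difference of 0.10, with 5 of 6 higher, and this median turned to -0.03 with quantile normalization. Sod1, the copper-zinc superoxide dismutase, was at 5.74, 5.69 and 5.73 in WT and at 5.82, 5.86 and 6.00 in FoxO1 +/-. The groups did not overlap, and the difference was 0.18 (SE 0.08, adjusted p = 0.820). It came to 0.06 with quantile normalization and to 0.10 with slide row as a block. Prdx2, the main peroxiredoxin of the cytosol, read 4.99, 4.99 and 4.92 against 5.01, 5.01 and 5.22. Its groups were 0.020 apart and its difference of 0.11 (SE 0.08) came to 0.04 without FoxO1 +/- replicate 3.

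The other 4 cytosolic members overlapped between the genotypes. Gpx1, the most widespread glutathione peroxidase, differed by 0.11 (SE 0.12), and Gpx4, which reduces lipid peroxides within membranes, by 0.07 (SE 0.07). Prdx6, a peroxiredoxin that uses glutathione, differed by 0.09 (SE 0.12), with 1 of its 3 other probes at -0.25 (SE 0.32). Gss, glutathione synthetase, was the only one lower, by 0.11 on the log2 scale (-0.11, SE 0.14). The signs of Gpx1, Gpx4 and Prdx6 turned with quantile normalization.

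The NRF2-driven members leaned the other way, with 10 of 15 lower in FoxO1 +/- and a median of -0.06, which came to 0.02 without WT replicate 2. Nqo1, the quinone reductase that is the usual readout of NRF2 activity, was at -0.81, -1.10 and -0.89 in WT and at -1.44, -1.41 and -1.03 in FoxO1 +/-. FoxO1 +/- replicates 1 and 2 were below all WT arrays, while replicate 3 lay above WT replicate 2. The means were -0.93 ± 0.15 and -1.30 ± 0.23 (SD, n = 3), a difference of -0.36 (SE 0.14, 0.777-fold, 95% interval -0.71 to -0.02, unadjusted p = 0.0427 and adjusted p = 0.798 by limma). The range over left-out arrays was -0.50 to -0.29, and slide row as a block gave -0.51.

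The members of this group that serve glutathione synthesis are the 2 subunits of the enzyme glutamate-cysteine ligase and the cystine transporter. Gclc, the catalytic subunit, read 1.59, 1.50 and 1.61 in WT and 1.39, 1.39 and 1.47 in FoxO1 +/-. It was the only member that was lower without overlap, by 0.15 on the log2 scale (-0.15, SE 0.07, adjusted p = 0.826), with a gap of 0.030 between the groups. Gclm, the modifier subunit, differed by -0.06 (SE 0.08). Slc7a11, which imports the cystine for glutathione synthesis, was at -1.79, -0.44 and -1.19 in WT and at -1.21, -1.41 and -0.999 in FoxO1 +/-. The WT arrays alone enclosed all 3 FoxO1 +/- arrays, so the difference of -0.07 had an SE of 0.34, and it turned to 0.29 without WT replicate 2.

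Hmox1, heme oxygenase, gave 5.45, 6.12 and 5.56 in WT and 5.60, 5.81 and 6.16 in FoxO1 +/-. Both genotypes spanned nearly the same range, and the difference was 0.15 (SE 0.22, adjusted p = 0.982). It was -0.10 with slide row as a block. Gsr, which regenerates reduced glutathione, ranged 1.93-fold over the 6 arrays and differed by -0.02 (SE 0.25). Of the thioredoxin branch, Txn1 (thioredoxin), Txnrd1 (its reductase), Prdx1 (a peroxiredoxin) and Srxn1 (sulfiredoxin, which repairs peroxiredoxins) differed by -0.07 (SE 0.13), -0.07 (SE 0.10), 0.09 (SE 0.08) and -0.02 (SE 0.12). All 4 overlapped between the genotypes, Srxn1 with its 3 antioxidant cores included.

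Glutathione S-transferases, which couple glutathione to electrophiles, went both ways. Gstp1 was at 3.36, 3.63 and 3.55 in WT and at 3.27, 3.39 and 3.26 in FoxO1 +/-, where only FoxO1 +/- replicate 2 reached into the WT range. Its difference was -0.21 (SE 0.09, adjusted p = 0.826), and -0.08 (SE 0.09) on its second probe. Gsta4, the form that detoxifies hydroxynonenal, differed by 0.22 (SE 0.25) and ranged 1.82-fold over the arrays. It differed by 0.02 without FoxO1 +/- replicate 3, by 0.10 without WT replicate 3, by 0.36 without WT replicate 2 and by 0.45 without FoxO1 +/- replicate 2. Gstm1 and the microsomal Mgst1 differed by 0.16 (SE 0.17) and 0.00 (SE 0.12).

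Gpx2, an epithelial glutathione peroxidase, had the largest difference of all members and the largest spread. It was at 2.87, -0.13 and 1.14 in WT and at -0.53, -0.29 and 0.02 in FoxO1 +/-. WT replicates 1 and 3 lay above every FoxO1 +/- array, and WT replicate 2 lay among them. The difference was -1.56 (SE 0.72, 95% interval -3.31 to 0.19, adjusted p = 0.826), and it was -0.77 without WT replicate 1 and -2.27 without WT replicate 2. Over the 6 arrays Gpx2 ranged 10.5-fold, against a median of 1.31-fold over the members and 1.30-fold over all genes.

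Some hair follicle markers were high on the same arrays as Gpx2 and others were not, in a comparison chosen after its values were seen. Of 7 markers 6 were measured, Krt25 was not, and 4 were well above background on all 6 arrays. The list's mean level was -0.06, -3.54 and -2.86 in WT and -3.51, -4.30 and -3.73 in FoxO1 +/-. Krt71, a keratin of the inner root sheath, was at 4.93 on WT replicate 1 and between -6.43 and -3.30 on the other 5 arrays. Krt27, another root sheath keratin, was at 3.02 there and between -5.44 and -3.60 elsewhere. WT replicate 1 also held the highest level of Hoxc13 and Foxn1. Lef1 was highest on WT replicate 3 (-3.24, against -3.58 on WT replicate 1), and Msx2 on WT replicate 2 (-0.06, against -0.59 on WT replicate 1). Foxn1 was lowest on WT replicate 3 (-3.86), where Gpx2 was second highest. The part of follicle tissue in the Gpx2 difference was not tested.

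**Figure D3:**
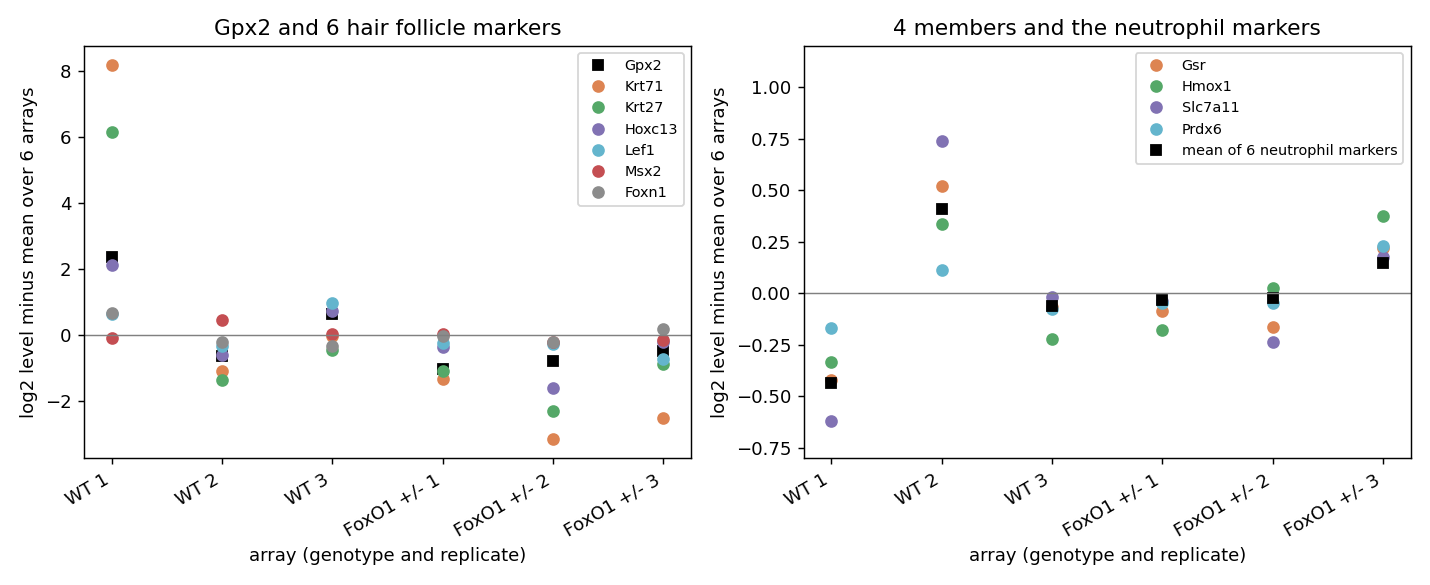
Log2 level minus the mean over the 6 arrays (y axis) for Gpx2 with all 6 measured hair follicle markers (left) and for Gsr, Hmox1, Slc7a11 and Prdx6 with the mean of 6 neutrophil markers (right), on each array (x axis). On the left WT replicate 1 stands highest for Gpx2, Krt71, Krt27, Hoxc13 and Foxn1 but not for Lef1 or Msx2, and on the right it stands lowest for the 4 members, which were chosen after their values were seen, and for the neutrophil mean.

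The members secreted or in the ER had a median difference of 0.15, with 5 of 6 higher, and 0.01 with slide row as a block. Selenop is the selenoprotein that carries selenium in plasma, and of its listed promoters only the one shown above holds the FOXO motif. It was at 7.55, 7.35 and 7.47 in WT and at 7.55, 7.61 and 7.73 in FoxO1 +/-. The groups touched, with a gap of 0.001, and the difference was 0.18 (SE 0.09, adjusted p = 0.845). It came to 0.05 with quantile normalization. Sod3, the extracellular superoxide dismutase, differed by 0.18 (SE 0.14), and Gpx3, the plasma glutathione peroxidase, by -0.03 (SE 0.15). The ER members Gpx7, Gpx8 and Prdx4, which use peroxide in protein folding, differed by 0.15 (SE 0.14), 0.14 (SE 0.14) and 0.15 (SE 0.11), and each overlapped between the genotypes.

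Cat, the peroxisomal catalase, was at 1.18, 1.10 and 1.58 in WT and at 1.28, 1.08 and 1.19 in FoxO1 +/-. The groups overlapped, with a difference of -0.10 (SE 0.14, adjusted p = 0.979), which turned to 0.04 without WT replicate 3, and its second probe was at 0.07 (SE 0.13). Of the 5 members known as FOXO targets, Sod2, Prdx3, Prdx5 and Selenop were thus on the higher side in FoxO1 +/- and Cat on the lower, and none passed the adjusted threshold.

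The metallothioneins, small proteins that bind zinc and copper and scavenge oxidants, varied together. Mt1 was at 7.57, 7.99 and 7.62 in WT and at 7.94, 7.98 and 8.09 in FoxO1 +/-. Mt2 was at 7.96, 8.39 and 8.01 in WT and at 8.29, 8.22 and 8.36 in FoxO1 +/-. In both, WT replicates 1 and 3 were the lowest of the 6 arrays and WT replicate 2 reached the level of FoxO1 +/-. The differences were 0.28 (SE 0.13, adjusted p = 0.826) for Mt1, and 0.17 (SE 0.13, adjusted p = 0.912) for Mt2. Quantile normalization gave 0.14 and 0.04, and leaving out WT replicate 1 gave 0.20 and 0.09. Their promoters, with 3 and 4 metal cores, are the ones shown above.

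The regulators themselves differed little. Nfe2l2, which encodes NRF2, was at 4.06, 4.51 and 4.21 in WT and at 4.29, 4.21 and 4.22 in FoxO1 +/-. All 3 FoxO1 +/- arrays lay within the WT range, and the difference was -0.02 (SE 0.12, adjusted p = 0.998). Keap1, its inhibitor, read 3.12, 3.20 and 3.00 against 2.95, 3.08 and 2.84. The groups overlapped and differed by -0.15 (SE 0.10, adjusted p = 0.900).

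The contrast of mitochondrial with NRF2-driven members was also taken on each array, as the mean of the members' deviations from their mean over 6 arrays. Mitochondrial members were at -0.07, -0.02 and -0.07 in WT and at 0.03, 0.04 and 0.09 in FoxO1 +/-, without overlap. NRF2-driven members were at 0.05, 0.10 and 0.05 in WT and at -0.16, -0.14 and 0.10 in FoxO1 +/-, where FoxO1 +/- replicate 3 stood with the WT arrays. The mitochondrial minus NRF2-driven value was -0.12 on each WT array and 0.18, 0.18 and -0.01 on the FoxO1 +/- arrays.

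That separation depended on a single member. With Gpx2 left out, a choice made after its values were seen, the contrast over the other 14 NRF2-driven members was 0.05, -0.18 and -0.08 in WT and 0.12, 0.13 and -0.05 in FoxO1 +/-, and the genotypes overlapped. The mitochondrial minus cytosolic value was 0.00, -0.06 and 0.01 in WT and 0.06, 0.08 and -0.09 in FoxO1 +/-, also overlapping. No test is given for these values, since the members were chosen with earlier results known.

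Single arrays stood out across the members. FoxO1 +/- replicate 3 held the highest level of 17 members and WT replicate 2 that of 10, while FoxO1 +/- replicate 1 held none. Together these 2 arrays held the highest level of 73.0% of the members, against 42.9% of all genes. WT replicate 1 held the lowest level of 15 members. In 18 members (48.6%, against 18.2% of all genes) the highest WT array was replicate 2 and the highest FoxO1 +/- array was replicate 3. Those 18 include Sod2, Gpx1, Prdx5, Prdx6, Gsr, Hmox1, Slc7a11, Mt1 and Mt2. The signal at the 75th percentile, to which levels are scaled, was 900 on FoxO1 +/- replicate 3 and 1094 to 1302 on the other arrays. Its part in these counts was not tested.

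**Figure D4:**
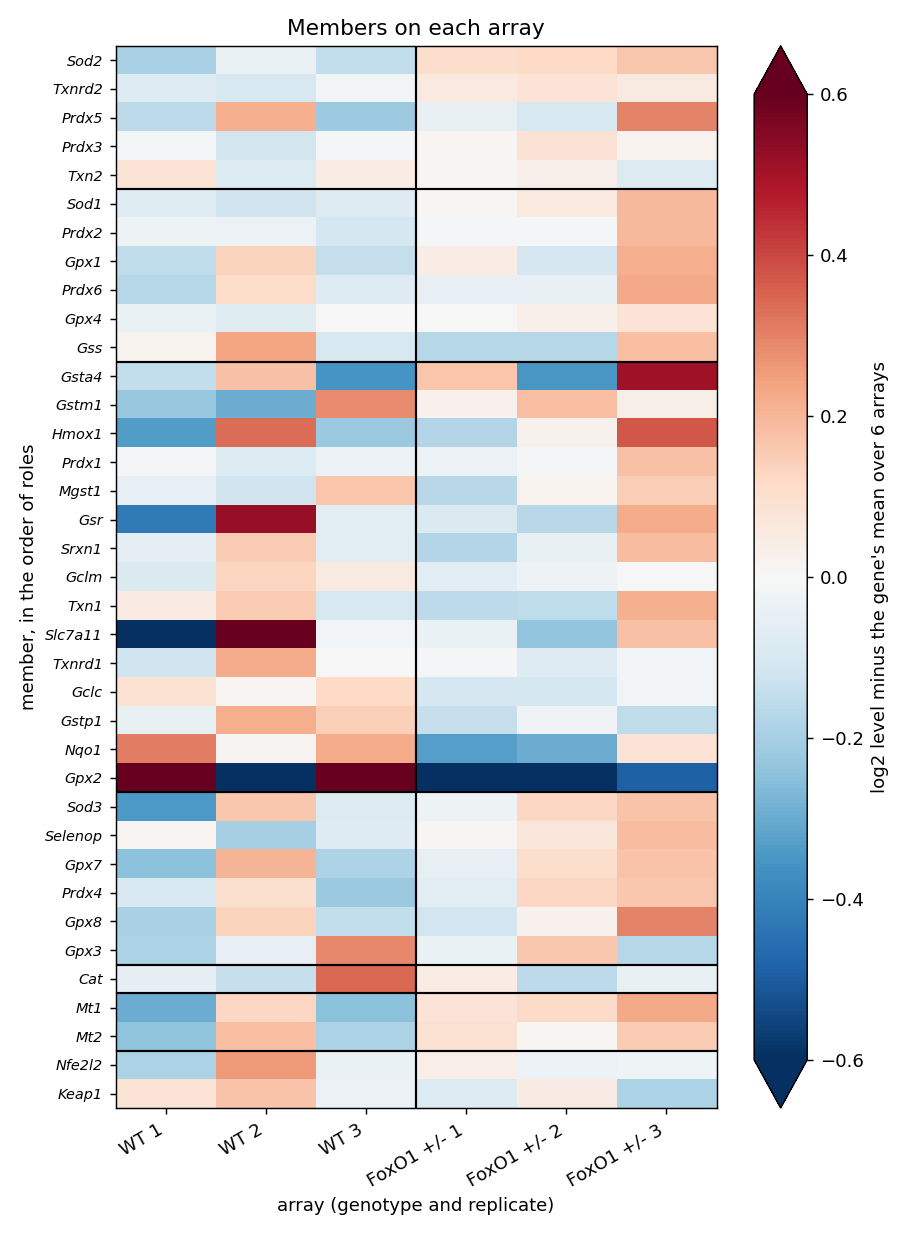
Log2 level minus the gene's mean over 6 arrays (colour, ends at -0.6 and 0.6) for the 37 members (rows, in the order of roles) on each array (columns, with a line between the genotypes). The columns of WT replicate 2 and FoxO1 +/- replicate 3 are the reddest, with the highest level of 10 and 17 members.

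The mean deviation of all members was highest on FoxO1 +/- replicate 3 (0.11), next on WT replicate 2 (0.07). It was lowest on FoxO1 +/- replicate 1 (-0.07), next on WT replicate 1 (-0.05). Neutrophil markers varied over the arrays in an order that was only partly the same. Of 7 markers 6 were measured, and Ly6g was not. Their mean level was 3.61, 4.45 and 3.98 in WT and 4.01, 4.02 and 4.19 in FoxO1 +/-. The list's mean was thus highest on WT replicate 2, next on FoxO1 +/- replicate 3 and lowest on WT replicate 1, but single markers differed. S100a8, Mmp8 and Cxcr2 were highest on WT replicate 2, and S100a9, Retnlg and Mmp9 on FoxO1 +/- replicates 3, 2 and 1. Retnlg, Mmp8 and Cxcr2 were lowest on WT replicate 1. S100a9 was lowest on WT replicate 3, and S100a8 and Mmp9 on FoxO1 +/- replicate 2. Monocyte and macrophage markers, 6 of 7 measured, had means of 5.11, 5.45 and 5.28 in WT and of 5.44, 5.38 and 5.41 in FoxO1 +/-. This mean was also lowest on WT replicate 1, but of the single markers only Cd14 was (5.34, 7.01 and 6.18 in WT). Adgre1 and Mrc1 were lowest on WT replicate 2, Csf1r and Lyz2 on WT replicate 3, and Itgam on FoxO1 +/- replicate 2. The part of these cells in the members' levels was not tested.

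Around the members, 7 lists of other genes of the same chemistry were drawn up, with 120 genes of which 115 were measured. None passed the adjusted threshold, and 6 (5.22%) had an unadjusted p under 0.05, 3 in each direction. The genotypes did not overlap in 13 (11.3%), 7 higher and 6 lower, and the median difference was 0.01. These shares are close to those over all genes, 6.25% and 11.5%.

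The 19 other glutathione S-transferases had a median difference of 0.11, with 13 higher, and a median of -0.03 with slide row as a block. Gstz1, which also degrades tyrosine products, was at 2.73, 2.45 and 2.95 in WT and at 3.05, 3.22 and 3.22 in FoxO1 +/-, without overlap, a difference of 0.45 (SE 0.14, adjusted p = 0.667). Gsto2, which reduces dehydroascorbate, was higher by 0.29 (SE 0.08, adjusted p = 0.639), also without overlap. Gsta3 had the highest difference, 1.03 (SE 0.48), with WT replicate 3 at the level of FoxO1 +/-, and Mgst2 the lowest, -0.26 (SE 0.22).

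Of the glutathione turnover and glutaredoxin list 19 of 20 were measured, with a median of -0.04. Oplah, which returns oxoproline to glutamate, was at 1.03, 1.50 and 1.07 in WT and at 0.73, 0.76 and 0.70 in FoxO1 +/-. It did not overlap between the genotypes and had the lowest difference of the list, -0.47 (SE 0.14, adjusted p = 0.642). Lap3, a cytosolic aminopeptidase, was also lower without overlap, at -0.24 (SE 0.08, adjusted p = 0.724). Cth, which makes cysteine from cystathionine, had the highest difference, 0.28 (SE 0.17).

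The 24 other NRF2 targets and partners had a median of -0.05, with 15 lower. Aldh3a1, an aldehyde dehydrogenase of epithelia, was the lowest and the only one with an unadjusted p under 0.05, at 2.97, 2.74 and 3.48 in WT and at 2.63, 2.67 and 2.43 in FoxO1 +/- (-0.48, SE 0.20, adjusted p = 0.798). Ftl1, the ferritin light chain, was the highest at 0.18. In the NADPH supply list, of which 9 of 10 were measured, 7 were lower and the median was -0.04, from Me1 (malic enzyme, -0.24, SE 0.14) to Pgls (0.07), and no gene passed an unadjusted p of 0.05.

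The 16 thioredoxin partners and repair enzymes had a median of 0.00, from Sesn2 at -0.21 to Txndc17 at 0.07. The sources of superoxide and nitric oxide, 14 of 16 measured, had a median of 0.04, from Duox1 (an epithelial oxidase, -0.36, SE 0.16) to Mpo (the myeloperoxidase of neutrophils, 0.64, SE 0.31). No gene of these lists had an unadjusted p under 0.05.

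In the list of metal and zinc handling, 14 of 15 genes were measured, with a median of 0.06. Mt4, the metallothionein of stratified epithelium, was at -0.10, -0.88 and -0.06 in WT and at 0.40, 0.71 and 0.42 in FoxO1 +/-. It did not overlap between the genotypes and had the highest difference of the list, 0.85 (SE 0.24, unadjusted p = 0.0112 and adjusted p = 0.625 by limma). The iron exporter Slc40a1 was the lowest at -0.27. Mt4 thus differed in the same direction as Mt1 and Mt2, by more, and with a p below that of any of the 37 members.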

How the data were processed

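Cy3-labelled RNA of wound tissue was measured in 3 WT and 3 FoxO1 +/- samples, 1 per array, and whether a sample is 1 animal or a pool is not stated. The deposited scanner files hold spot intensity, which the authors extracted with Agilent Feature Extraction 10.7.1.1 per the file headers and 9.1 per the submitters' processing notes. The processed signal is background-subtracted within each array, per the file headers. The authors' deposited value table holds the same signal, within 0.5%. With 3 arrays a genotype, their number sets the precision.

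The deposited intensity was converted to log2. Outlier-flagged spots were left out, spots of a probe were averaged, and values were set relative to the array's 75th percentile (control probes not counted). Probes stayed in if all arrays of either genotype had them well above background, and the brightest kept probe stood for its gene. Symbols came from RefSeq accessions (26582 of 28116 matched) in a table of a later assembly (GRCm38.p6) than the array's (mm9).

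FoxO1 +/- minus WT was fitted by lmFit and tested by eBayes (limma 3.58.1 in R 4.3.3, two-sided), with Benjamini-Hochberg adjustment over 16408 genes. The p-values reflect only how much these arrays varied, which may be technical. An exact permutation test of 3 against 3 arrays cannot give a p below 0.1 and was not used. On simulated data with 100 genes changed 2-fold and 100 changed 4-fold, the fit recovered 70% and 91% of them, with 11 false calls. Smaller changes were not simulated.

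Members, roles and lists were chosen with earlier results of these data known. Values on every array were given for members with an unadjusted p under 0.05 or without overlap, for the known FOXO targets, for Nfe2l2, Keap1, Nqo1 and Hmox1, and, chosen after their values were seen, for Gpx2, Slc7a11, Gstp1, Mt1 and Mt2. Of each other list, genes with an unadjusted p under 0.05 and those with the highest and lowest difference were named. Alternatives were normexp (offset 50, on median rather than mean spot signals), quantile and median scaling, other probe filters, the mean over probes, the authors' table, slide row or replicate number as a block, and each array left out. Comparison within slide row 1, and leaving out Gpx2, were added after seeing the data.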

Additional observations from a re-analysis of the deposited data

How the results depend on the processing

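No member passed an adjusted p of 0.05 in any of the 16 alternative settings, and 552 of 592 member and setting pairs kept their direction, 21 members in all 16 settings. The count of 552 includes pairs whose direction was fixed in advance. The replicate block left every difference as it was, and the other probe filters kept the same member probes. Row 1 alone repeated the differences of the slide row block. All limits rest on 3 arrays a genotype and on 1 slide, whose row 1 had all WT arrays but only replicate 1 of FoxO1 +/-. The fit with slide row as a block and the comparison within row 1 therefore rest on that 1 FoxO1 +/- array. Same-numbered arrays did not deviate together (correlations -0.07, -0.14 and -0.30 over genes, against -0.12 to 0.24 for differently numbered arrays). With 3 arrays a genotype, these values cannot show whether the samples were paired. The replicate block gave 0 genes at the adjusted threshold and left 2 members with an unadjusted p under 0.05. The cause of the changes below was not tested.

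Members with an unadjusted p under 0.05 numbered 1 without a filter on dim probes (5.44% of all genes), 0 with slide row as a block (2.91%), 1 within row 1 (3.11%), and 1 to 6 with an array left out (4.13% to 9.10%). Members without overlap numbered 4 with normexp (13.3% of all genes), with quantile (11.3%) and with median scaling (10.4%), and 9 to 21 with an array left out (18.1% to 26.7%), where fewer arrays have to be separated. Over all genes, 1 was called in the fit described, 0 with normexp, 2 with quantile and 5 with median scaling, 3 without a filter, 0 with the filter on all 6 arrays, 7 with slide row as a block, 4 within row 1, and 0 to 28 with an array left out, 28 without WT replicate 2. Beside each 0, limma gave 1223 (normexp), 958 (the filter on all 6 arrays) and 793 genes (replicate block) at an unadjusted p under 0.05, and 678 to 1078 in the 5 fits with an array left out that called 0.

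The median of the mitochondrial members was 0.067 with normexp, 0.059 with quantile scaling and 0.053 both with a block for slide row and within row 1. Quantile scaling turned the median of the cytosolic members to -0.034 and of all members to -0.036. Slide row as a block, and row 1 alone, gave 0.014 for the secreted and ER members and -0.0024 for all members. Quantile scaling also turned Gpx1 (-0.055), Gpx4 (-0.032), Prdx1 (-0.033), Prdx5 (-0.0018), Prdx6 (-0.036) and Mgst1 (-0.074). Mgst1 was at -0.028 with median scaling and -0.0028 with the authors' table, and Prdx6 at -0.029 as the mean over probes. Slide row as a block and row 1 alone turned Gpx8 (-0.049), Prdx6 (-0.0024), Mgst1 (-0.164), Hmox1 (-0.104) and Nfe2l2 (0.031).

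With an array left out, 12 members crossed 0. The ranges were -0.198 to 0.043 for Cat, -0.135 to 0.104 for Gpx3, -0.018 to 0.240 for Prdx5, -0.0012 to 0.168 for Prdx6, -0.078 to 0.0041 for Txn2 and -0.147 to 0.024 for Txnrd1. They were -0.239 to 0.234 for Gsr, -0.070 to 0.085 for Mgst1, -0.0032 to 0.352 for Hmox1, -0.121 to 0.060 for Srxn1, -0.393 to 0.285 for Slc7a11 and -0.115 to 0.107 for Nfe2l2.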
